A study of Mus musculus with 8 samples.

Results

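Monocytes carrying *Ly6c2* and *Plac8* were picked out of the single-cell RNA libraries of mouse left ventricle, where 320 of 11377 cells met the rule after sham operation and 172 of 8260 after ischemia–reperfusion (IR), 492 of 19637 in all. In this assay each droplet carries a barcode and each captured RNA molecule a unique molecular identifier (UMI), so that counts are molecules. A barcode was taken as a cell if it had at least 200 genes and at most 30% mitochondrial UMIs, without an upper limit on genes. A cell was taken as a monocyte of this kind if it had at least 3 UMIs of *Lyz2*, at least 2 of *Ly6c2*, and at least 0.3% of its UMIs from *Ly6c2* and *Plac8* together. Cells were left out if they had 0.2% or more of their UMIs from *C1qa*, *C1qb* and *C1qc* (resident macrophages), 0.3% or more from *Thbs1*, *Arg1* and *Vcan* (recruited macrophages), 2% or more from *S100a8* and *S100a9* (neutrophils), or more than 1 UMI of *Cd79a* and *Cd3e* (B and T cells). The cells were thus chosen by measured values of these genes, whose levels are given below as a description.

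Male C57BL/6 mice aged 10 to 12 weeks had the left anterior descending artery tied for 30 min and then reperfused, or the same operation without the tie, and left ventricles were taken 6 h after surgery. By their labels the sham samples stand at 0 h (IR0h) and the IR samples at 6 h (IR6h), whereas the methods place both groups at 6 h. The labels list 4 samples a condition, and the paper states that cells of 3 hearts were pooled into a sample. The deposited counts hold 1 matrix a condition, and no cell can be tied to its sample. With 1 library a condition and no replicates, differences could not be tested, and intervals (95%) cover counting error only.

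Classical monocytes, which in mice carry the surface protein Ly6C, leave the bone marrow through the chemokine receptor CCR2, circulate in blood and enter injured tissue, where many turn into macrophages. Nonclassical monocytes arise from them, lose Ly6C and CCR2, and patrol the vessel wall under the control of the nuclear receptor *Nr4a1*. Interferon-stimulated genes are switched on by type I interferon through its receptor and IRF factors, and NF-kB carries the response to tissue damage, cytokines and microbes. In the heart, CCR2-bearing monocytes are known as an early source of inflammatory cytokines after infarction.

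Promoters of genes that the results turn on are shown to give a view of the elements that the interferon and NF-kB pathways are known to use. They are from RefSeq (GRCm38.p6) and run from 250 bases before to 50 after the start of the transcript, 5′ to 3′ on the gene's strand. Capitals mark matches, on either strand, to GAAA, any 2 bases and GAAA (a form of the interferon response element) and to GGGA, any 2 bases and TTCC (a form of the kappaB site). *Isg15*, a ubiquitin-like antiviral protein, and *Ifit3*, an antiviral RNA-binding protein, hold only the first of them. The promoter of *Cxcl10*, a chemokine for T cells, holds both, and that of the cytokine *Il6* only the second.
*Isg15*, chr4:156200769-156201068, minus strand: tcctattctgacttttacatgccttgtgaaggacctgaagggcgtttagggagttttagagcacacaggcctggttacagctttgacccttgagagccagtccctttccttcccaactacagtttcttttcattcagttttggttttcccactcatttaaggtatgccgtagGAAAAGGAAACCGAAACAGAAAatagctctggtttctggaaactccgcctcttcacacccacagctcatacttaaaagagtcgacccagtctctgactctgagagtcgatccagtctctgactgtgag
*Ifit3*, chr19:34583279-34583578, plus strand: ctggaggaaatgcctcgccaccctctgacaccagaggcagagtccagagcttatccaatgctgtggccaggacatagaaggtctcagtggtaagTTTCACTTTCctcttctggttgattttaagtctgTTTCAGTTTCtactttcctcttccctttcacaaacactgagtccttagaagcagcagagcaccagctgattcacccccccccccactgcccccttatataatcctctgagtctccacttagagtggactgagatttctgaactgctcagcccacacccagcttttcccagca
*Cxcl10*, chr5:92348840-92349139, minus strand: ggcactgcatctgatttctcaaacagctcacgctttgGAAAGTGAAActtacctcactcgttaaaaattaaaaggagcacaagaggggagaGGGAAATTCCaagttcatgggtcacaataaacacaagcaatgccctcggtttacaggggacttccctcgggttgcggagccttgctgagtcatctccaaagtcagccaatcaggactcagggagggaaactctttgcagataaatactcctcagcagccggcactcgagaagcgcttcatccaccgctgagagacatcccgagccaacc
*Il6*, chr5:30012864-30013163, plus strand: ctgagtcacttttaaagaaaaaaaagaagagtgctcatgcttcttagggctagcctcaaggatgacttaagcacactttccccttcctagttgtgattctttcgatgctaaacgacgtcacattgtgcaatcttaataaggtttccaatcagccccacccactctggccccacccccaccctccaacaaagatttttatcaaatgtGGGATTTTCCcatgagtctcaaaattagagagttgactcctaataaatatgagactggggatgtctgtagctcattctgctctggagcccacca
The interferon element was found in 16 of the 30 promoters matched to 27 of the 34 interferon-stimulated genes listed (53.3%), against 1131 of all 32851 promoters of that length (3.44%). The matches in *Isg15* overlap each other. The kappaB element was found in 4 of 7 promoters of CXC chemokines (57.1%), 3 of 12 of inflammatory cytokines (25%), 3 of 19 of NF-kB feedback genes (15.8%), 4 of 30 of interferon-stimulated genes (13.3%), 0 of 5 of CC chemokines and 482 of all 32851 (1.47%). A match is a description of the sequence and not a site shown to be bound, and *Irf7* and *Ly6c2* had no match to either in this window.

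The monocytes were 2.81% of the cells in sham (95% interval 2.52 to 3.13, Clopper–Pearson) and 2.08% in IR (1.79 to 2.41). Of the cells with at least 3 UMIs of *Lyz2*, a lysozyme gene of myeloid cells, they were 8.01% of 3993 in sham and 6.93% of 2481 in IR. The larger share was in sham under 5 of the 7 alternative limits tried. Without the limit on *Thbs1*, *Arg1* and *Vcan* the order turned, with 2.86% in sham and 3.32% in IR, and it also turned among cells with fewer than 3 nonclassical UMIs (1.20% and 1.78%). With at most 2500 genes per cell the shares were 2.17% and 0.328%, since 156 of the 172 IR monocytes (90.7%) had over 2500 genes against 108 of 320 in sham (33.8%). A share of cells also depends on how many cells of other types were recovered.

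The libraries differed in the depth and quality of these cells. A sham monocyte had a median of 6915 UMIs over 2190 genes, and an IR monocyte 13281 UMIs over 2998 genes. Mitochondrial genes took 1.88% of the UMIs of the median sham cell and 4.23% of the median IR cell. Summed over the cells, 2620816 sham UMIs and 2319997 IR UMIs stood behind the values below. The libraries had 30 barcodes in common, of which 0 belonged to a monocyte. At least 2 UMIs of genes of another lineage (B, T, natural killer, fibroblast, endothelial, cardiomyocyte or mural) were found in 83 sham and 32 IR monocytes, which stayed in as possible doublets.

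The genes of the rule stood closer to its threshold in IR. *Ly6c2*, a glycosylphosphatidylinositol-anchored surface protein (chr15:75108158-75111970, minus strand, GRCm38), had 6324 counts per 1000000 (CPM, UMIs of a gene over all the monocytes of a library, divided by all their UMIs) in sham and 1003 in IR. *Plac8*, a small cysteine-rich protein of myeloid cells (chr5:100553725-100572245, minus strand), had 8168 and 3787 CPM, and *Lyz2* 18361 and 19722 CPM. The share of *Ly6c2* and *Plac8* in a cell had a median of 1.47% in sham and 0.434% in IR. Just inside the limit stood cells with 0.309% in sham and 0.301% in IR, and just outside it cells with 0.282% and 0.299%. In IR, 153 cells failed only this criterion, 76 only the count of *Ly6c2* and 102 only the limit on *Thbs1*, *Arg1* and *Vcan*, where the nearest cell outside had 0.304%, and in sham the nearest had 0.293% inside and 0.321% outside. In sham the same 3 criteria left out 11, 36 and 5 cells alone.

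*Ccr2*, the receptor for CCL2 and CCL7 and a marker of these cells that the rule did not use, had 435 CPM in sham (410 to 461) and 1375 in IR (1327 to 1423), a log2 ratio of IR to sham of 1.66 (1.56 to 1.76). After each cell was thinned to 1000 UMIs, so that depth was equal, 28.6% of sham and 69.2% of IR monocytes had a UMI of it, against 2.30% and 1.71% of B cells, which served as the measure of free RNA since they lack this gene (median 3818.5 and 3724 UMIs before thinning). Of the 14 markers listed for classical monocytes, all had UMIs in both libraries, 5 were at least 2-fold higher in IR and 4 at least 2-fold lower, and the median log2 ratio was 0.12 (−0.24 in cells with fewer than 3 UMIs of nonclassical genes, described below). Besides *Ly6c2* and *Plac8*, the lower ones were *Fcgr1*, an Fc receptor (443 and 152 CPM), and *Ms4a4c* (1571 and 666 CPM). Markers of other cells differed by list. The 7 recruited macrophage markers, 3 of which the rule limits, summed to 743 CPM in sham and 5519 in IR monocytes, with 7 of 7 at least 2-fold higher in IR, against 182 and 1256 CPM in B cells. The 6 endothelial markers summed to 245 and 25.9 CPM and the 5 mural markers to 276 and 24.1, and in sham all but 1 of each list were above their level in B cells. The part of these cells' RNA in the results was not tested. The 13 resident macrophage markers summed to 261 and 331 CPM in the monocytes, against 24246 and 17862 in C1q macrophages (cells with at least 0.5% C1q), and *Mertk*, a receptor for dead cells, was at 1.91 and 4.31 CPM. The fibroblast list summed to 1837 CPM in sham and 191 in IR, against 1980 and 2681 in B cells, and each of its 7 genes was at or under its level in B cells in both libraries.

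Nonclassical genes went against the name classical in the sham library. Of 11 nonclassical markers, 10 were at least 2-fold higher in sham, and their sum was 3745 CPM in sham and 1107 in IR. *Ace*, the angiotensin-converting enzyme (chr11:105967945-105989964, plus strand), had 338 CPM in sham and 9.48 in IR, and *Treml4*, a receptor that binds dead cells, 159 and 12.9 CPM. *Eno3*, an enolase, had 247 and 2.59 CPM, and *Cd300e*, an activating receptor, 64.5 CPM and 0 UMIs. Over 7 such genes (*Treml4*, *Ace*, *Spn*, *Eno3*, *Adgre4*, *Ear2* and *Cd300e*), 183 of the 320 sham monocytes (57.2%) had at least 3 UMIs, against 25 of 172 in IR (14.5%), and 49 sham and 20 IR cells lay at 2 or 3 UMIs, next to this limit. When cells were thinned to 2000 UMIs, at least 3 such UMIs were found in 120 of 314 sham monocytes (38.2%) and 2 of 171 IR monocytes (1.17%), and in 2.15% of 837 sham B cells and 0.576% of 521 IR B cells. The 7 genes and the limit were chosen after these values had been seen.

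**Figure D1:**
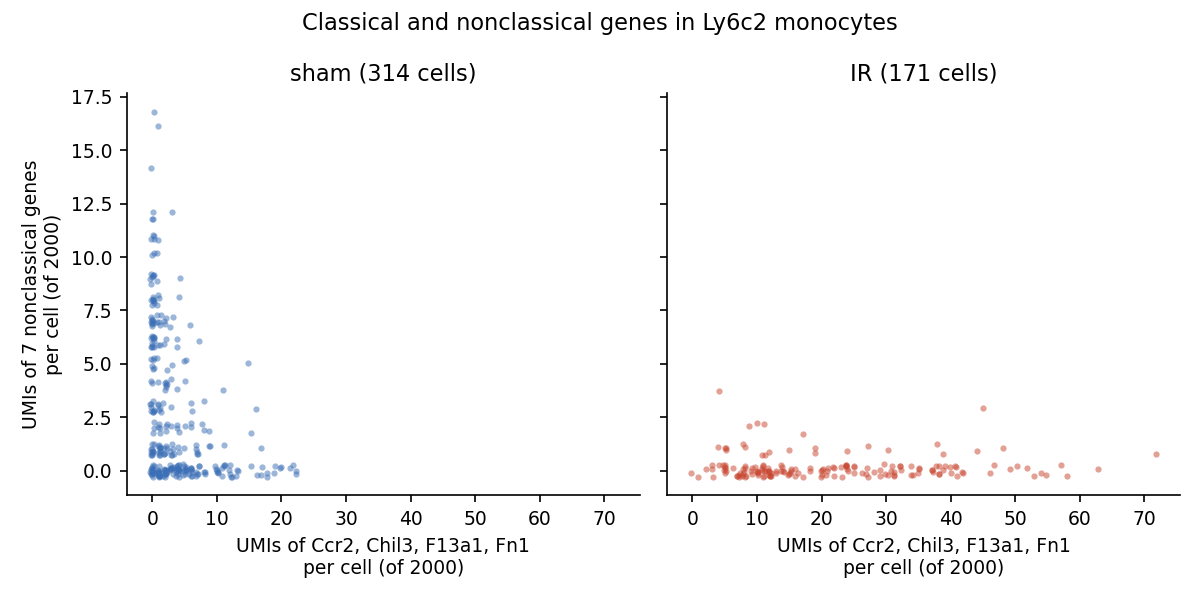
Each point is a monocyte thinned to 2000 UMIs (left, 314 sham cells, and right, 171 IR cells). The x axis gives its UMIs of *Ccr2*, *Chil3*, *F13a1* and *Fn1*, each at least 2-fold higher in IR. The y axis gives those of 7 nonclassical genes, and small random shifts separate points at the same value. Sham cells lie along both axes, whereas all but 2 of the IR cells have fewer than 3 nonclassical UMIs.

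Within the sham library the cells with at least 3 nonclassical UMIs and the 137 with fewer also differed in genes outside those 7, at like depth (median 6812 and 7113 UMIs). *Ccr2* was at 261 CPM in the former and 698 in the latter. *Chil3*, a chitinase-like lectin secreted by young monocytes, was at 676 and 1728 CPM. *F13a1*, the A subunit of clotting factor XIII, was at 56.3 and 356 CPM. These 3 classical genes were lower in the cells with nonclassical UMIs. *Itgal*, the integrin LFA-1 alpha chain, was instead higher in them (853 against 153 CPM), as were *Pou2f2*, a transcription factor (867 against 243 CPM), *Cx3cr1*, the fractalkine receptor (278 against 77.9 CPM), *Bcl2*, which protects from apoptosis (74.0 against 9.62 CPM), and *Nr4a1* (1278 against 438 CPM). *Ly6c2* itself was at 5163 and 8089 CPM, so both kinds of cell carried it. Per cell, UMIs of 4 genes (*Ccr2*, *Chil3*, *F13a1* and the recruited macrophage marker *Fn1*) were set against those of the 7 nonclassical ones. They had a Spearman rho of −0.50 over 314 sham cells and −0.07 over 171 IR cells. Of the 314 sham cells, 108 (34.4%) held UMIs of both. Each of the 4 was at least 2-fold higher in IR, so a high count in IR does not rank those cells as more classical. The sham cells are therefore called Ly6c2 monocytes here, and results are given also for the 137 sham and 147 IR cells with fewer than 3 nonclassical UMIs.

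Between the libraries, 618 of the 8785 genes with at least 20 UMIs in the monocytes were at least 2-fold higher in IR (7.03%) and 1440 at least 2-fold lower (16.4%), with a median log2 ratio over all of them of −0.18. Among cells with fewer than 3 nonclassical UMIs these were 660 of 7620 genes (8.66%) and 902 (11.8%), with a median of −0.12. Over the 2571 genes with at least 100 UMIs in each library the median was −0.02. Without the possible doublets 699 genes were at least 2-fold higher in IR and 992 at least 2-fold lower. The counts describe the size of ratios and not their significance. The counts in the marker lists above and in the lists of genes by function below are to be set against these shares.

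**Figure D2:**
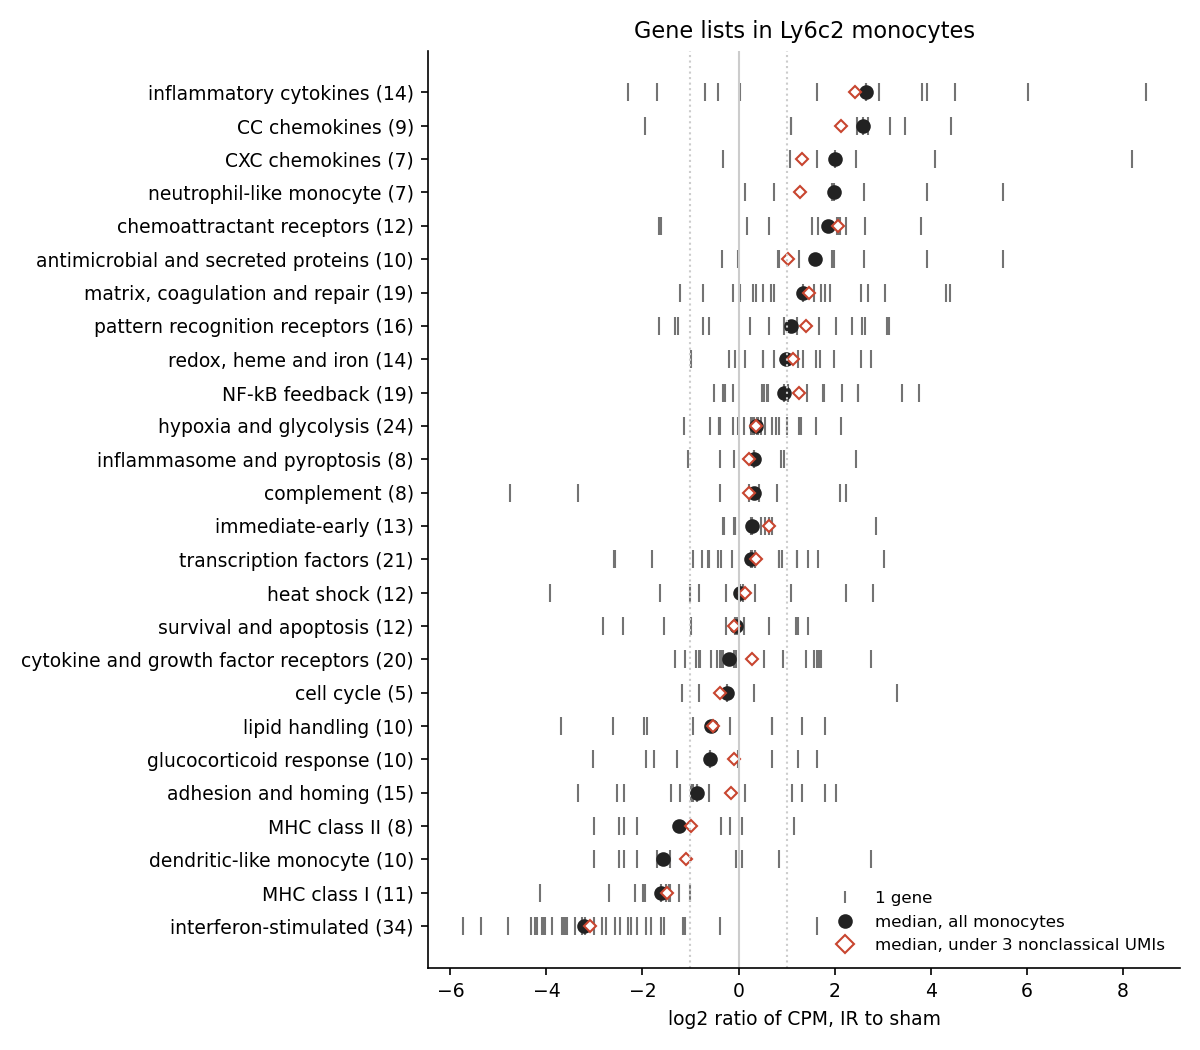
Log2 ratio of CPM in IR to sham for the genes (ticks) of 26 functional lists, with the number of genes that had at least 20 UMIs in parentheses, the median over all monocytes (filled circles) and over those with fewer than 3 nonclassical UMIs (open diamonds), and dotted lines at 2-fold. Inflammatory cytokines and chemokines stand at the top with medians over 2, and the interferon-stimulated list at the bottom with a median of −3.23.

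The interferon-stimulated genes stood apart from the other lists on the low side in IR. Of 34 genes, 32 were at least 2-fold lower in IR and 1 at least 2-fold higher, with a median log2 ratio of −3.23, and among cells with fewer than 3 nonclassical UMIs 31 were lower and the median was −3.09. *Irf7*, the factor that amplifies type I interferon (chr7:141262706-141266481, minus strand), had 1297 CPM in sham (1253 to 1341) and 65.1 in IR (55.1 to 76.3), a log2 ratio of −4.32 (−4.56 to −4.08). *Isg15* had 1227 CPM in sham and 103 in IR (log2 ratio −3.57, −3.77 to −3.38). *Ifit3* had 462 and 8.62 CPM (log2 ratio −5.75, −6.46 to −5.11). All of these were several-fold or more lower in the IR library, and also without the cells with nonclassical UMIs, where *Irf7* was at 1042 and 60.3 CPM and *Isg15* at 1180 and 104. *Bst2*, which tethers virus particles to the cell, had 1269 and 158 CPM. *Ifitm3*, which blocks virus entry, stood nearer to equality (log2 ratio −1.11, −1.15 to −1.08). *Irf1*, which also answers to NF-kB, had 169 and 130 CPM and did not reach 2-fold (log2 ratio −0.38, −0.60 to −0.17).

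*Cxcl10* was the member of the list that was at least 2-fold higher in IR, with 216 CPM in sham and 671 in IR (log2 ratio 1.63, 1.49 to 1.77). It was found in 11.9% of thinned sham and 21.5% of thinned IR monocytes. With at most 2500 genes per cell, where 16 IR cells are left, its log2 ratio was −0.49. Both elements were found in its promoter and in those of *Gbp2*, a guanylate-binding protein, and *Ifitm3*. These 2 genes were at least 2-fold lower in IR (log2 ratios −2.57 and −1.11). The part of either element in these ratios was not tested.

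Cell by cell, the interferon list made up 0.533% to 5.58% of the UMIs of a sham monocyte (median 2.77%) and 0.364% to 3.64% of an IR monocyte (median 0.750%). Only 2 of 172 IR monocytes reached the sham first quartile, and 8 of 320 sham monocytes were at or under the IR median. The cells of both libraries thus hardly overlapped, and the level was high in most sham cells rather than in a few. Other cells of the same libraries also had less of it in IR. The summed list was 25352 CPM in sham and 8162 in IR monocytes (3.11-fold), 13876 and 4225 in C1q macrophages (3.28-fold), and 8854 and 3542 in B cells (2.50-fold), where *Irf7* was at 337 and 33.7 CPM and *Isg15* at 328 and 67.6. In IR, 15 of the 34 genes were at or under their level in B cells, and in sham 0 of 34. With 1 library a condition, the condition and the library cannot be told apart.

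The genes with the smallest ratios held a member of the Ly6 family, and 3 of its other genes are given beside it. *Ly6i* (chr15:74979534-74983430, minus strand) had the smallest ratio of the genes with UMIs in both libraries that met the naming rule, with 465 CPM in sham (1219 UMIs) and 3.02 in IR (7 UMIs). *Ly6a*, which encodes Sca-1, had 492 and 17.2 CPM, and *Ly6e* 3716 and 1208 CPM. *Ly6c1* (chr15:75044018-75048830, minus strand), a near-identical neighbor of *Ly6c2*, had 48.1 and 3.02 CPM. Reads of *Ly6c1* and *Ly6c2* can be shared between them, so the split between these genes is uncertain. Among the 12 genes with the smallest ratios by the naming rule were also *Phf11a* (127 and 4.31 CPM), *Phf11d* (253 and 9.05 CPM), *Oas1g*, an oligoadenylate synthetase (55.3 and 2.59 CPM), and *Klrk1*, which encodes NKG2D (54.9 and 2.16 CPM). *S1pr5*, a sphingosine-1-phosphate receptor by which cells leave the bone marrow, was at 59.5 CPM in sham and had 0 UMIs in IR. Set to a floor of 3 UMIs over the library, *S1pr5* was at least 46.0-fold lower in IR and *Cd300e* at least 49.9-fold lower. *Ace*, *Eno3*, *Cd300e*, *Spn* (CD43), *S1pr5* and *Scnn1a*, a sodium channel subunit (59.1 and 2.59 CPM), completed the 12 with *Irf7*. Within sham, *S1pr5* was at 94.9 CPM in cells with at least 3 nonclassical UMIs and 5.77 in those with fewer, and *Scnn1a* at 88.6 and 14.4. Among cells with fewer than 3 nonclassical UMIs *Eno3* was at 2.88 and 2.01 CPM and *Scnn1a* at 14.4 and 2.51, though *Ace*, *Spn*, *Eno3* and *Cd300e* are among the genes that set that limit.

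Antigen presentation genes were lower in IR as well. All 11 genes of the MHC class I list, which display peptides from inside the cell, were at least 2-fold lower, with a median log2 ratio of −1.62, and 10 were so among cells with fewer than 3 nonclassical UMIs (median −1.50). *H2-K1*, a class I heavy chain, had 3159 CPM in sham and 713 in IR, *B2m*, its light chain, 3851 and 1430, and the immunoproteasome subunit *Psmb8* 767 and 325. B cells had a median of −1.21 over the same genes. Of 8 class II genes, 4 were at least 2-fold lower and 1, the costimulatory *Cd86* (54.6 and 121 CPM), at least 2-fold higher. *H2-Ab1*, a class II beta chain, had 850 and 163 CPM and *Cd74*, the invariant chain, 2709 and 630. Class II UMIs were unevenly spread, since the list took a median of 0.083% of a sham cell's UMIs but up to 9.81%, and at least 1% in 40 of 320 sham (12.5%) and 5 of 172 IR monocytes (2.91%). This limit of 1% was set after the values were seen. All 8 class II genes in sham were at or under their level in B cells, which express them, and the part of free RNA in these values was not tested.

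**Figure D3:**
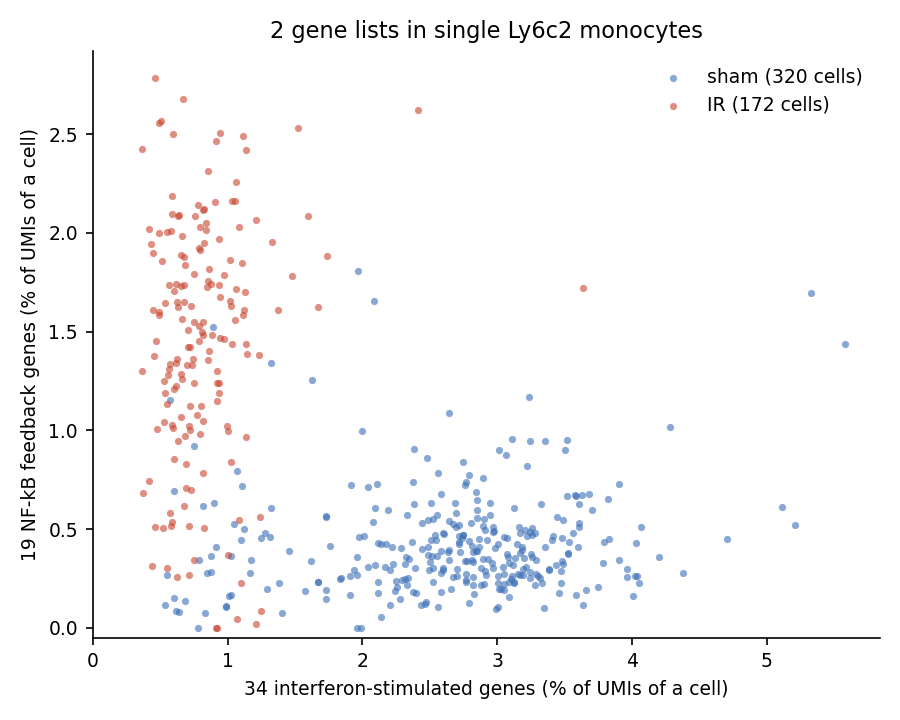
Each point is a monocyte (320 sham, 172 IR), with the share of its UMIs from 34 interferon-stimulated genes on the x axis and from 19 NF-kB feedback genes on the y axis, both in percent. IR cells lie at the upper left and sham cells at the lower right, with medians of 0.750% and 2.77% for the interferon list and 1.52% and 0.377% for the NF-kB list.

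Genes that NF-kB is known to induce, many of which feed back on it, were on the high side in IR. Of 19 feedback and target genes, 9 were at least 2-fold higher in IR and 0 at least 2-fold lower (median log2 ratio 0.94), and 12 were higher among cells with fewer than 3 nonclassical UMIs. *Nfkbia*, the inhibitor IkB-alpha, had 924 CPM in sham and 4133 in IR (log2 ratio 2.16). *Tnfaip3*, the deubiquitinase A20, had 87.0 and 485 CPM. *Socs3*, which dampens cytokine receptors, had 289 and 1615 CPM, and *Ier3*, an immediate-early stress gene, 211 and 2839. *Ptgs2*, the prostaglandin-forming cyclooxygenase, had 53.8 and 572 CPM. In contrast *Nfkb2* (48.8 and 44.8 CPM) and *Cd40* (35.1 and 28.0 CPM) were within 2-fold. Other cells also had more of the list in IR. It summed to 4290 and 14897 CPM in the monocytes (3.47-fold), 2653 and 5154 in B cells (1.94-fold) and 4889 and 11334 in all other cells (2.32-fold). In IR, recruited macrophages with *Thbs1*, *Arg1* and *Vcan* (described below) had 17108 CPM. In IR, 6 of the 19 genes were at or under their level in B cells, and the part of free RNA was not tested. The list took a median of 0.377% of the UMIs of a sham and 1.52% of an IR monocyte, 155 of 172 IR cells (90.1%) stood over the upper quartile of sham, and 159 (92.4%) were over the sham median of this list and under that of the interferon list, against 78 of 320 sham cells (24.4%).

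Inflammatory cytokines had the highest median of the functional lists. Of 14 genes with at least 20 UMIs, 9 were at least 2-fold higher in IR and 2 at least 2-fold lower (median log2 ratio 2.65), and 9 and 3 among cells with fewer than 3 nonclassical UMIs. *Il6* (chr5:30013114-30019981, plus strand) had 5.34 CPM in sham (14 UMIs) and 346 in IR (803 UMIs), a log2 ratio of 6.02 (5.26 to 6.90), and had the largest ratio of the genes that met the naming rule. Its sham level was under that of sham B cells (11.9 CPM), whereas in IR it was well over that of B cells (33.3 CPM), with a UMI in 23.3% of thinned IR monocytes and 1.33% of B cells. *Il1b*, the pyrogenic interleukin-1 beta, had 1164 and 7316 CPM (log2 ratio 2.65, 2.60 to 2.71), and was also at 1686 CPM in IR B cells. *Il1a* rested on 1 UMI in sham and 315 in IR (log2 ratio 8.48, 5.99 to 13.78). *Il1rn*, the interleukin-1 receptor antagonist, had 40.1 and 252 CPM, *Osm*, oncostatin M, 74.0 and 561, and *Tnfsf9*, the ligand of 4-1BB, 39.3 and 559. *Tnf* had 68.3 and 211 CPM. The members at least 2-fold lower in IR were *Il15* (38.2 and 7.76 CPM), which sustains natural killer cells, and *Il27* (16.8 and 5.17 CPM), a cytokine that acts on T cells, whose log2 ratio was 0.27 with at most 2500 genes per cell. *Tgfb1* stood at 360 and 366 CPM, with a log2 ratio between −0.11 and 0.16. The rise was not particular to the monocytes. In B cells 9 of the 14 genes were at least 2-fold higher in IR, with a median log2 ratio of 2.50. The list summed to 1894 and 9878 CPM in the monocytes (5.22-fold) and to 554 and 2594 in B cells (4.68-fold). In IR it was at 12456 CPM in recruited macrophages with *Thbs1*, *Arg1* and *Vcan* (described below). The part of free RNA in these values was not tested.

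Chemokines were higher in IR in the monocytes, but their transcripts were also abundant in B cells of that library. Of 9 CC chemokines 8 were at least 2-fold higher in IR and 1 lower, and of 7 CXC chemokines 6 were higher and 0 lower (median log2 ratios 2.59 and 2.01). In IR, 6 of the 10 listed CC and 4 of the 8 listed CXC chemokines were at or under their level in B cells. *Ccl2*, the ligand of CCR2, had 117 CPM in sham and 1290 in IR, and 133 and 2441 in B cells. *Cxcl3* had 1.53 and 445 CPM in the monocytes and 0.331 and 628 in B cells. For *Ccl2*, *Ccl7* (33.6 and 297 CPM) and *Cxcl3*, the IR level in monocytes was thus under that in B cells, and the part of free RNA in it was not tested. *Ccl4*, which draws leukocytes, had 317 and 1913 CPM against 247 and 928 in B cells, and *Cxcl2*, which draws neutrophils, 425 and 7256 CPM against 451 and 3848 in B cells. *Ccl5* had 36.6 and 9.48 CPM, under its level in B cells (192 and 59.4 CPM).

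Receptors for chemoattractants were mostly higher in IR, pattern recognition genes were more often higher than lower, and adhesion genes stood on both sides. Of 12 chemoattractant receptors 8 were at least 2-fold higher and 2, *Cxcr4* (365 and 115 CPM) and *Cx3cr1* (199 and 65.1 CPM), at least 2-fold lower (median log2 ratio 1.85). Among cells with fewer than 3 nonclassical UMIs 8 were higher and 0 lower. *Ccr1*, which binds CCL3, CCL6 and CCL9, had 51.1 and 714 CPM (log2 interval 3.55 to 4.07). *C5ar1*, the receptor of the complement fragment C5a, had 46.6 and 201 CPM. Of 16 pattern recognition genes 8 were at least 2-fold higher and 3 lower, and with fewer than 3 nonclassical UMIs 10 were higher and 1 lower. *Cd14*, the co-receptor for lipopolysaccharide, had 304 and 2679 CPM (log2 ratio 3.14, 3.03 to 3.25), and *Clec4e*, the Mincle receptor for dead cells, 140 and 1196 CPM. *Tlr2* had 111 and 452 CPM. Of 15 adhesion and homing genes 4 were at least 2-fold higher and 5 lower (median log2 ratio −0.87), among them *Itga5*, the fibronectin receptor alpha chain (log2 ratio 2.04), and *Selplg*, a ligand of P-selectin (465 and 200 CPM). With fewer than 3 nonclassical UMIs 4 adhesion genes were higher and 3 lower, and the median was −0.16.

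Of 10 antimicrobial and secreted proteins, 6 were at least 2-fold higher in IR, 0 at least 2-fold lower and 4 within 2-fold, among them *Lgals3*, galectin-3 (log2 ratio −0.02), and *Hp*, haptoglobin (0.85). *Chil3* (chr3:106147554-106167564, minus strand) had 1094 and 6723 CPM (log2 ratio 2.62, 2.56 to 2.68), and *Saa3*, an acute-phase serum amyloid (chr7:46711998-46715700, minus strand), 53.8 and 2434 CPM (log2 ratio 5.50, 5.26 to 5.75). *Mmp8*, a neutrophil collagenase, had 43.5 and 656 CPM, *Prtn3*, a serine protease of granules made in marrow precursors, 30.9 and 123, and *Lcn2*, an iron-binding lipocalin, 78.2 and 302. A list of 13 genes of the so-called neutrophil-like monocytes held these, and 7 of them had at least 20 UMIs, of which 5 were at least 2-fold higher in IR and 0 lower. The per-cell share of that list ranged from 0% to 1.85% in sham (median 0.070%) and from 0.012% to 4.62% in IR (median 0.931%). Most of it in IR was *Chil3* and *Saa3*, with 6723 and 2434 of the 10685 CPM of the list. *Chil3* is also among the markers listed for classical monocytes, so the share does not by itself mark a neutrophil-like state. *S100a8*, which neutrophils express, was at 382 and 520 CPM, with 273 and 2283 CPM in B cells, and *S100a9* at 966 and 328 CPM, with 611 and 3683. Both calprotectin genes were limited by the rule.

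Genes of matrix, clotting and repair also had higher values in IR, in the monocytes and in B cells. Of 19 such genes 10 were at least 2-fold higher and 1, *Tgm2*, at least 2-fold lower, and *Tgm2* (59.1 and 25.4 CPM) was higher in IR among cells with fewer than 3 nonclassical UMIs (9.62 and 26.6 CPM). *Fn1*, fibronectin, had 232 and 1354 CPM, *F13a1* 175 and 1133, *Tgfbi*, a matrix adaptor, 374 and 1237, and clotting factor X (*F10*) 159 and 470. *Spp1*, osteopontin, had 11.4 and 229 CPM, and 63.5 CPM in IR B cells. In B cells 15 of the 19 genes were at least 2-fold higher in IR, with a median log2 ratio of 1.58 against 1.35 in the monocytes. The list summed to 2334 and 6209 CPM in the monocytes and to 785 and 2421 in B cells. In IR, 8 of the 21 listed genes were at or under their level in B cells, and the part of free RNA was not tested. Of 14 redox and iron genes 7 were at least 2-fold higher and 0 lower, among them *Slc7a11*, the cystine importer (57.6 and 339 CPM), and *Txnrd1*, thioredoxin reductase (28.2 and 191 CPM). In B cells 8 of the 14 were at least 2-fold higher, with a median log2 ratio of 1.54 against 0.99 in the monocytes. In IR, 8 of the 16 listed redox and iron genes were at or under their level in B cells. Of 24 hypoxia and glycolysis genes 5 were at least 2-fold higher, led by the glucose transporter *Slc2a1* (30.9 and 136 CPM), and the median log2 ratio was 0.36. The other genes with the largest ratios were *Tfec*, a MiT-family transcription factor (4.58 and 61.2 CPM), *Adora2b*, an adenosine receptor (14.5 and 159 CPM), *Dmkn* (9.16 and 104 CPM), *Ms4a8a* (29.8 and 305 CPM) and *Uck2*, a uridine kinase (9.16 and 90.5 CPM).

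Transcription factors stood on both sides, 5 of 21 at least 2-fold higher in IR and 3 lower, against 7.03% and 16.4% of all 8785 genes. The count of lower ones was thus near the share over all genes. *Runx1*, a factor of blood cell development, had 102 CPM in sham and 277 in IR, and *Hif1a*, the oxygen-regulated factor, 80.5 and 253. *Klf2*, which keeps leukocytes quiescent, had 1659 and 280 CPM (log2 ratio −2.57, −2.69 to −2.45), and B cells had 1810 and 907 CPM of it. *Klf4*, needed for monocytes, had 405 and 116 CPM. *Spi1*, the PU.1 factor of myeloid cells, was within 2-fold (820 and 531 CPM). *Atf3*, the transcription factor of the study's title, had 438 CPM in sham (413 to 464) and 609 in IR (578 to 642), a log2 ratio of 0.48, in 33.0% and 33.1% of thinned cells. *Ifih1*, the double-stranded RNA sensor MDA5, had 134 and 28.4 CPM and *Apaf1*, the core of the apoptosome, 45.4 and 49.1. Of 13 immediate-early genes 1, *Egr2* (18 and 116 UMIs), was at least 2-fold higher and 0 lower, and of 12 survival and apoptosis genes 3 were higher and 3 lower.

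**Figure D4:**
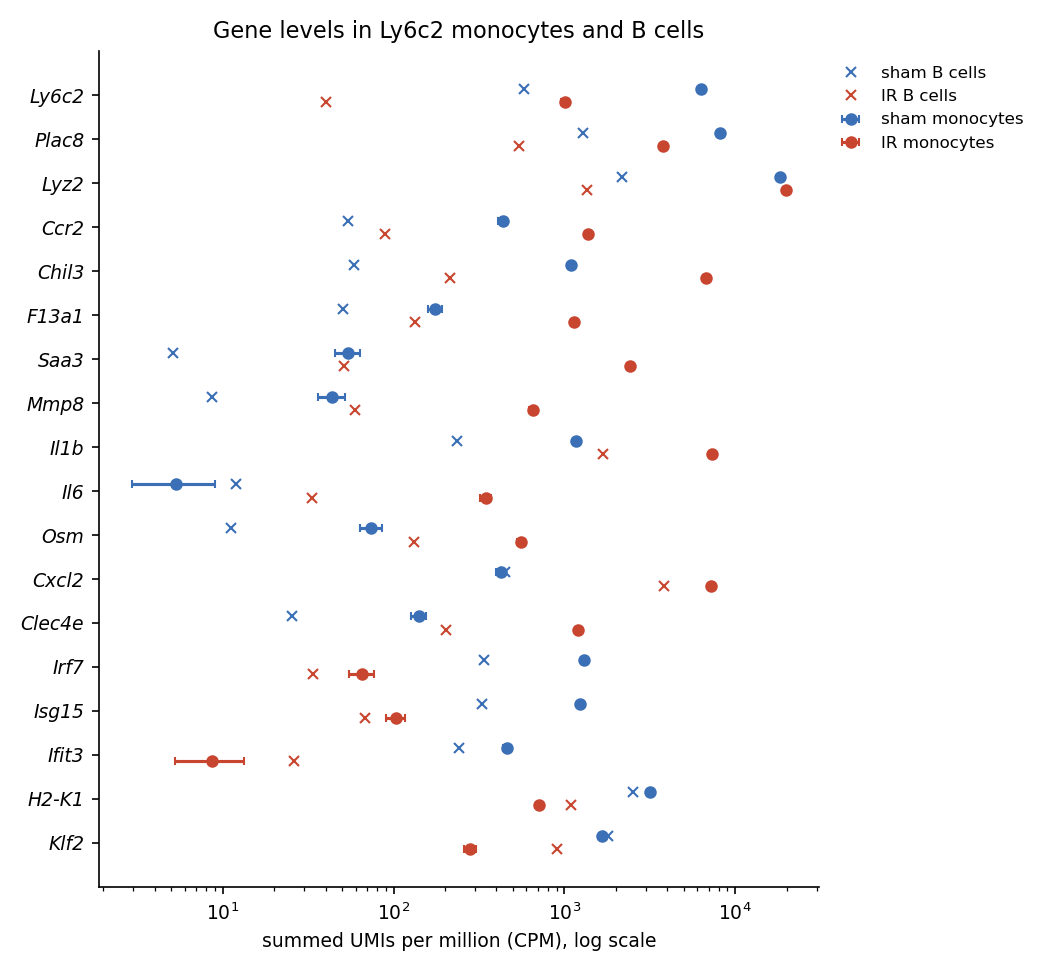
Level of 18 genes (CPM, log scale) in the sham (blue circles) and IR monocytes (red circles), with 95% Poisson intervals where wider than the symbol, and in B cells of the same libraries (crosses). *Irf7*, *Isg15* and *Ifit3* lie to the left in IR and *Saa3*, *Il6* and *Mmp8* to the right, and the B cells show the same direction for the interferon genes at lower levels in sham.

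The IR monocytes were set beside the cells that the rule left out as recruited macrophages. Under the other limits on *Lyz2*, C1q, *S100a8* and *S100a9*, and *Cd79a* and *Cd3e*, 702 IR cells had at least 0.3% of their UMIs from *Thbs1*, *Arg1* and *Vcan* (Thbs1/Arg1 cells), against 11 in sham. The median depth of these 702 cells was equal to that of the monocytes (13281 UMIs). *Ly6c2* was at 1003 CPM in IR monocytes and 316 in Thbs1/Arg1 cells, *Ccr2* at 1375 and 644, *Plac8* at 3787 and 1338, and *Lyz2* at 19722 and 8414. Some genes differed by less than 1.5-fold, with *Chil3* at 6723 and 5207 CPM, *Fn1* at 1354 and 1352, and *Il6* at 346 and 352. *Spp1* (229 and 1138 CPM), *Hmox1*, the heme-degrading enzyme (176 and 574 CPM), and *Cxcl3* (445 and 4180 CPM) were higher in the Thbs1/Arg1 cells, as were the summed CXC (8669 and 24832 CPM) and CC chemokines (7034 and 17300 CPM). These are comparisons of groups cut from the same cells by single genes, so they are descriptions and not tests.

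The 102 IR cells that failed only the limit on *Thbs1*, *Arg1* and *Vcan* also carried monocyte genes. *Ly6c2* was at 812 CPM in them, *Ccr2* at 1058, *Chil3* at 9708 and *Irf7* at 71.5, with *Thbs1*, thrombospondin-1, at 4220 against 694 in the members. The 153 IR cells that failed only the share of *Ly6c2* and *Plac8* had *Ccr2* at 957 CPM, *Chil3* at 4071, *Irf7* at 24.9 and *Isg15* at 86.4. The sham monocytes had *Irf7* at 1297 CPM and *Isg15* at 1227. The part of these limits in the differences between the libraries was not tested. In sham, 48 cells had at least 2 UMIs of *Ace*, *Treml4* and *Eno3*, at most 1 of *Ly6c2*, and UMIs of *Lyz2* (at least 3) and *Csf1r*, the receptor for colony-stimulating factor 1 (at least 1), by a rule tightened after the first version took mostly cells with fibroblast RNA. Their *Ace* was at 581 CPM and *Ccr2* at 114, next to 548 and 261 in the sham monocytes with at least 3 nonclassical UMIs.

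**Figure D5:**
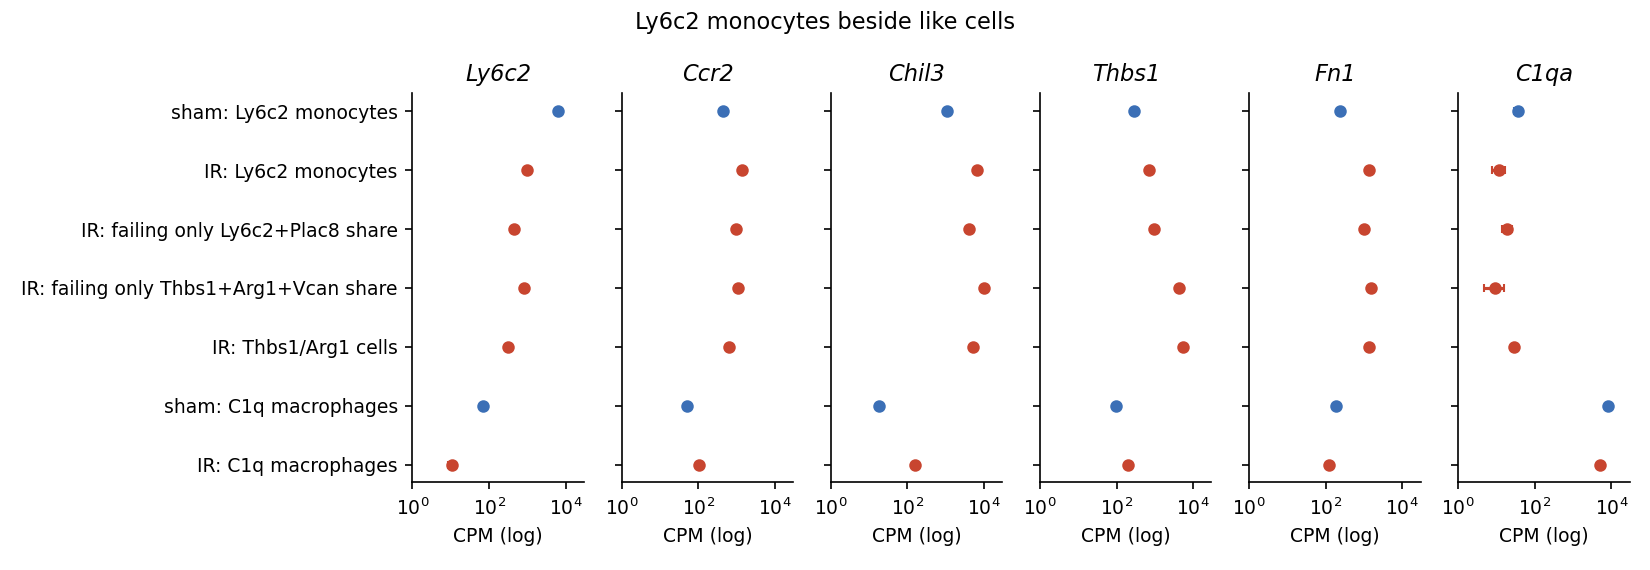
Level (CPM, log scale, with 95% Poisson intervals where wider than the symbol) of 6 genes in Ly6c2 monocytes, in IR cells failing only 1 limit of the rule, in Thbs1/Arg1 cells and in C1q macrophages, blue for sham and red for IR. *Fn1* in IR monocytes (1354 CPM) stands at the level of Thbs1/Arg1 cells (1352 CPM), whereas *C1qa* stays far under the level of C1q macrophages.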

How the data were processed

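Left ventricles of 8 samples, 4 a condition, were profiled with the 10x Genomics 3′ version 2 kit. The authors aligned reads to mm10 and deposited 1 matrix of UMI counts per condition, whose header names Cell Ranger 3.1.0; the counts were not normalized. Cells were filtered as the report states, with no doublet caller, and the 83 sham and 32 IR monocytes with at least 2 UMIs over 14 markers of other lineages were left out in an alternative. Counts were summed over the monocytes of each library and divided by their total (CPM) with exact Poisson intervals, and ratios were given exact conditional intervals. A gene at 0 was set to a floor of 3 UMIs per library sum. Genes needed 20 UMIs over both libraries. B cells had at least 3 *Cd79a* and 1 *Ms4a1* UMIs. The ratio script was tested on simulated data. Python 3.11.15, numpy 2.4.6, scipy 1.17.1, pandas 2.3.3 and matplotlib 3.10.9 were used.

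Named genes were the 12 largest and 12 smallest ratios among genes with at least 50 CPM in 1 library and 3 times the B-cell CPM in the higher one, leaving out mitochondrial, ribosomal, hemoglobin, immunoglobulin, Gm- and Rik-named genes, together with members of the gene lists. The monocytes and lists were chosen with earlier results of these data known. UMIs are molecules, and the depth of 2620816 and 2319997 monocyte UMIs sets the intervals, which leave out variation between animals. Some items are not reported here.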

Additional observations from a re-analysis of the deposited data

How the results depend on the processing

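The share of monocytes (2.81% in sham, 2.08% in IR) depended on the limits: it was 2.17% and 0.328% with at most 2500 genes, 2.08% and 1.69% without possible doublets, 3.14% in sham without the limit on *S100a8* and *S100a9*, 1.67% in IR with at least 4 *Ly6c2* UMIs, and 3.32% in IR without the limit on *Thbs1*, *Arg1* and *Vcan*. With fewer than 3 nonclassical UMIs, an alternative chosen after seeing the data, it was 1.20% in sham and 1.78% in IR, and 902 genes were at least 2-fold lower in IR. The counts of genes at least 2-fold higher and lower were 699 and 992 without possible doublets and 396 and 802 after thinning to 2000 UMIs. They were 1886 and 2896 with no minimum of UMIs per gene, and 301 and 743 at 3-fold. The log2 ratio changed sign for *Cxcl10* (−0.49), *C1qa* (0.41) and *Il27* (0.27) with at most 2500 genes, and for *Ear2* (0.87) and *Tgm2* (1.47) with fewer than 3 nonclassical UMIs. The cause of these shifts was not tested. No paired analysis was possible because no cell could be tied to a sample, and for the same reason no replicate could be left out in turn. Depth limits genes with few UMIs, such as *Il1a*, which had 1 UMI in sham.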
